A study of Homo sapiens with 9 samples.

Results

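The 54 genes described here encode the working parts of the lysosome, and were chosen by name from a list of cathepsins and other proteases (14 genes), glycosidases (9), other hydrolases and activator proteins (11), membrane and sorting proteins (11), subunits of the proton pump (6) and the TFEB family of transcription factors (3). All 54 symbols matched a row of the 63657 rows of the deposited gene table, and all 54 passed the filter of a mean of 1 FPKM, which left 16987 genes for testing. FPKM is the number of fragments scaled to transcript length and to the mapped total of the library, so levels can be set beside each other across genes of different length. The cells were MDA-MB-231, a human triple-negative breast cancer line in long use, and 4 RNA-seq libraries were compared: 2 of shLOXL2 cells, infected to express a short hairpin RNA against the lysyl oxidase-like enzyme LOXL2, and 2 of shControl cells. No label states the control hairpin's target, the number of hairpins or whether replicates were separate cultures. The p-values thus reflect only how far these libraries differ, which may be technical. The series asks what LOXL2 and the oxidised form of lysine 4 on histone H3 do to chromatin, and the comparison here asks whether the higher level of CTSD in shLOXL2 cells was shared by other lysosomal genes.

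Lysosomes are acidic compartments in which proteases, glycosidases, lipases and sulphatases break down material from endocytosis and autophagy. Their enzymes are made in the secretory pathway and sorted by mannose 6-phosphate receptors, their membrane carries heavily glycosylated proteins and transporters that export the products, and a rotary proton pump, the V-ATPase, keeps the lumen acidic. TFEB, TFE3 and MITF are related transcription factors that bind the E-box CACGTG and its extended forms at the promoters of many lysosomal genes, a pattern known as the CLEAR motif. Cancer cells, breast cancer cells among them, are known to make and partly secrete cathepsins such as cathepsin D.

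4 RefSeq promoter windows, each from 250 bases before to 50 bases after the start of the gene (GRCh38.p14), show how the E-box is placed in the most changed members and in a member with little change. They are given 5′ to 3′ on the strand of the gene, with every CACGTG in capitals. CTSD is at chr11:1763878-1764177 on the minus strand, GAA at chr17:80101331-80101630 on the plus strand, LAMP1 at chr13:113296989-113297288 on the plus strand and IDS at chrX:149505257-149505556 on the minus strand.
CTSD: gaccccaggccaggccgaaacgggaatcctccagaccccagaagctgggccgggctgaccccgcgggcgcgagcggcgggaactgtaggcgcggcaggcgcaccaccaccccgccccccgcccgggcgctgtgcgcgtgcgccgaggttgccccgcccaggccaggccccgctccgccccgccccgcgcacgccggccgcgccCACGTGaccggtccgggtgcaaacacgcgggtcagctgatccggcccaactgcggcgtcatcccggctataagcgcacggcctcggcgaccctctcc
GAA: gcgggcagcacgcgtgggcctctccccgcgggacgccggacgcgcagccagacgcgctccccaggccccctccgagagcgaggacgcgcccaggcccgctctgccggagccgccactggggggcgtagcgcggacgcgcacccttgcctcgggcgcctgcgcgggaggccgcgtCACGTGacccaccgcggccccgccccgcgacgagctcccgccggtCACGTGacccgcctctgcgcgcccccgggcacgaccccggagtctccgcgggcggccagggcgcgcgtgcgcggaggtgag
LAMP1: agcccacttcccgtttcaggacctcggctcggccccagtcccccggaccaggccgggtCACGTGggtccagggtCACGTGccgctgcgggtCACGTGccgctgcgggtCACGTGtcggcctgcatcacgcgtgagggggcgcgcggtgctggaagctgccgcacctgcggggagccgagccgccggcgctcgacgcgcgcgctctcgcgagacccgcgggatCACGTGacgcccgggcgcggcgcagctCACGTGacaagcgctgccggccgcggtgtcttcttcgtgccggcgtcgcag
IDS: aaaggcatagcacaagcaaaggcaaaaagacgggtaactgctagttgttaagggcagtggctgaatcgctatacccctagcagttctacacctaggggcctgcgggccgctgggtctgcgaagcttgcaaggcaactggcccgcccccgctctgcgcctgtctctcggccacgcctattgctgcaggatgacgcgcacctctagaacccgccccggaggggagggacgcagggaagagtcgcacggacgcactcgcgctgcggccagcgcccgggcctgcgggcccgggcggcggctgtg
CTSD has 1 such E-box, which begins 47 bases before the start of the gene. GAA has 2, at 76 and 31 bases before the start, both inside a palindrome that extends TCACGTGA by a further base at each end. LAMP1 has 6 and IDS has 0, and the expression of these genes is given below with that of the other members.

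LOXL2 itself stood at 15.2 and 12.1 FPKM in the shLOXL2 libraries and at 85.5 and 84.5 FPKM in the shControl libraries, a log2 change of -2.56 ± 0.12 (SE, n = 2 per group, limma adjusted p = 0.0124). Sums of FPKM over all rows were 1330440 and 1369370 in shLOXL2 and 1244380 and 1221570 in shControl, and mitochondrial and small RNA genes took 34.9% and 34.1% of them in shLOXL2 and 33.4% and 31.5% in shControl. The files give no read counts, so the depth of the libraries is unknown. Of markers of MDA-MB-231, VIM, CD44, EGFR, CAV1, AXL and LOXL2 were above 1 FPKM, and of 6 markers listed as absent from this line ESR1 and PGR were below 0.1 FPKM in every library. The 4 others averaged at least 1 FPKM, with ERBB2 highest at 29.8 and 26.1 FPKM in shLOXL2 and 27.6 and 26.4 FPKM in shControl, and EPCAM, GATA3 and CDH1 below 7 FPKM in every library. Of 15 macrophage and osteoclast markers, cells rich in lysosomes, 3 reached a mean of 1 FPKM (CD14, CSF1R and LYZ), 4 were listed at 0 in every library (CD163, TYROBP, MRC1 and OCSTAMP), and their summed level was 8.25 and 8.17 FPKM in shLOXL2 and 6.82 and 5.96 FPKM in shControl. Of 9 fibroblast markers 2 reached a mean of 1 FPKM, with sums of 12.3 and 10.2 FPKM in shLOXL2 and 6.06 and 7.39 FPKM in shControl. The part of these markers in the lysosomal results was not tested.

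More of the 54 listed genes rose than fell in shLOXL2 cells, and every other rise was smaller than that of CTSD. The list was drawn up with earlier results of these data known, so its counts are a description of these 54. Further lysosomal genes are counted below. Of the 54 members, 14 rose and 3 fell (limma, adjusted p below 0.05), that is 25.9% and 5.56%. Over all 16987 genes tested 8.35% rose and 8.54% fell, 16.9% in all, and over the 11213 protein-coding genes of the same fit 10.4% rose and 10.4% fell, 20.8% in all. A change past the threshold of at least 0.5 on the log2 scale was seen in 4 members, CTSD, IDS, GAA and GRN, and in 6.78% of all genes tested. A rise of at least 1 was seen in CTSD alone among the members and in 0.836% of all genes tested. Of the 37 members that did not pass, 13 had a 95% interval that excluded 0, 8 of them higher and 5 lower. In RNA from bulk cells, fewer cells making a transcript and less of it per cell cannot be told apart. The members' median log2 change was 0.14, against -0.0041 over all genes tested, and 35 members had a positive and 19 a negative log2 change. The groups did not overlap for 43 members (29 higher in shLOXL2 and 14 lower), or 79.6%, against 64.6% of all genes tested (31.8% higher and 32.8% lower) and 72.0% of the protein-coding ones. When libraries were rescaled to the same sum without mitochondrial and small RNA genes, which lowered the median of all genes to -0.081, 12 members rose and 8 fell and 953 of all genes rose and 2259 fell, beside 1419 and 1450 without rescaling. Every log2 change is a difference of log2(FPKM + 1), shLOXL2 minus shControl, which understates changes of genes at a few FPKM.

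**Figure D1:**
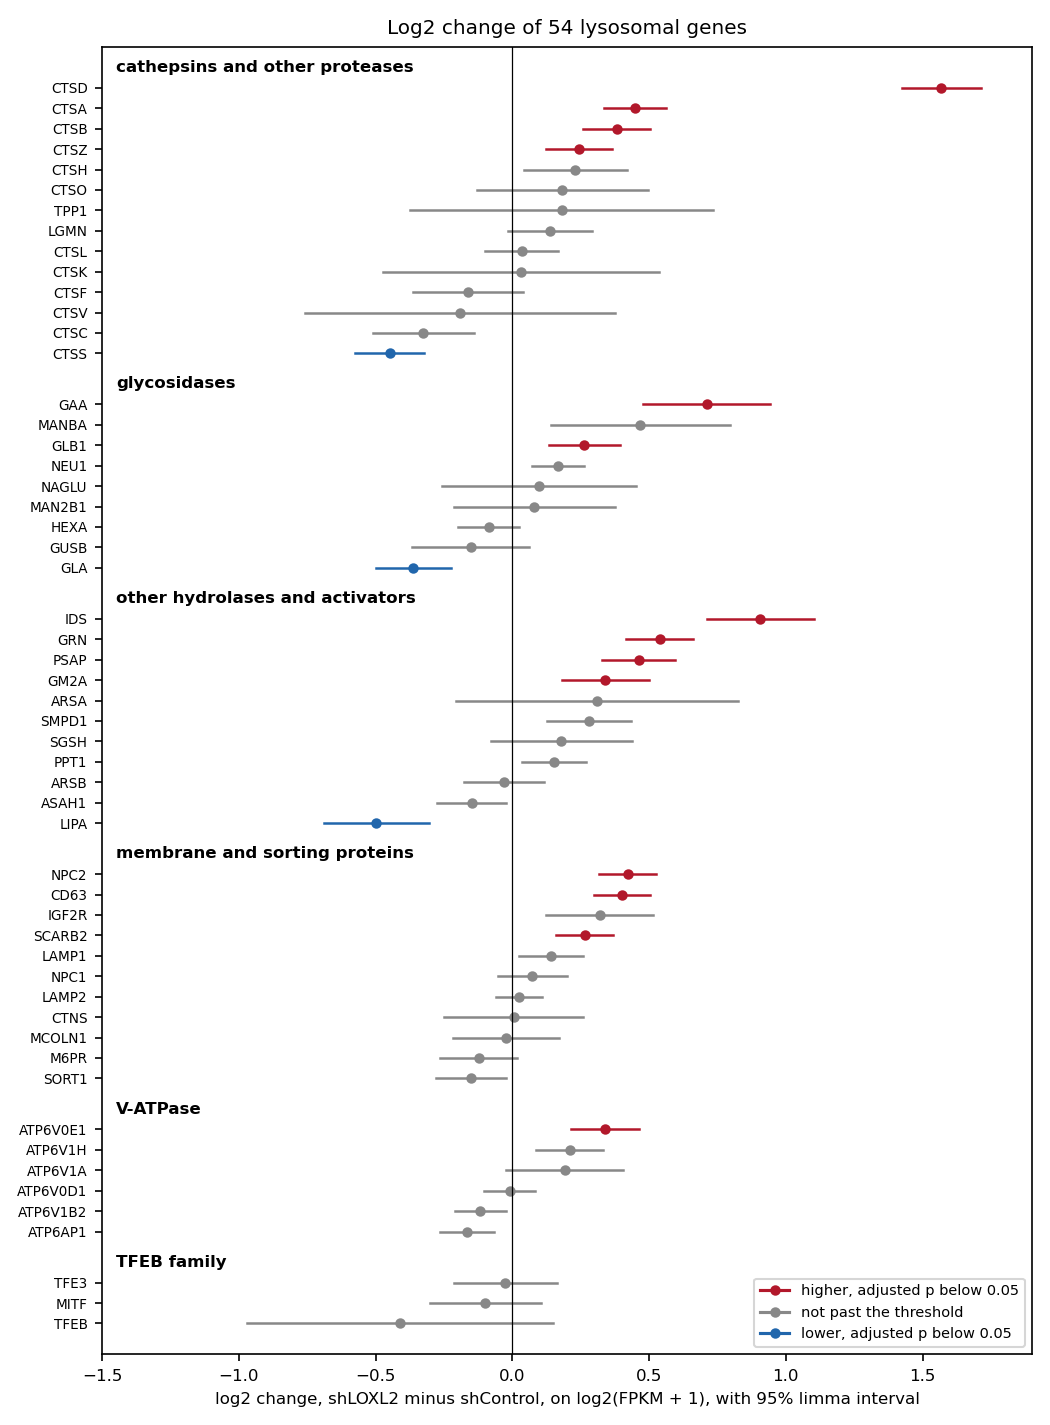
Log2 change of each lysosomal gene (shLOXL2 minus shControl, on log2(FPKM + 1)), with its 95% limma interval, by subgroup and ordered by size within it. CTSD, at 1.57, lies apart from the other 53, whose highest upper bound is 1.10.

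Cathepsins and the other proteases cut proteins inside the lysosome. Of the 14, with a median log2 change of 0.16, 4 rose and 1 fell, beside 8.35% and 8.54% of all genes tested. CTSD, the aspartic protease cathepsin D, stood at 871 and 810 FPKM in the shLOXL2 libraries and at 284 and 281 FPKM in the shControl libraries. The means differed 2.975-fold, and CTSD passed CD63 to become the most abundant member. On the log2 scale this was 1.57 ± 0.049 (SE, 2 libraries per group, 95% interval 1.42 to 1.71, limma adjusted p = 0.0115), and 11 of the 11213 protein-coding genes tested, CTSD included, had a log2 change of that size or more, as did 273 of all 16987 genes tested. CTSD was known to have risen when the genes were chosen, so its place at the top is a description. The interval of each of the other 53 members lay wholly below that of CTSD, with IDS nearest at an upper bound of 1.10. Within libraries, CTSD was 5.08 and 4.47 times the level of CTSB in shLOXL2 and 2.12 and 2.06 times in shControl, and its ratio to each of the 53 other members was higher in both shLOXL2 libraries than in both shControl libraries.

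CTSA, the carboxypeptidase that also protects beta-galactosidase and neuraminidase, stood at 104 and 109 FPKM in shLOXL2 and at 78.7 and 77.0 FPKM in shControl (log2 change 0.45 ± 0.038, SE, limma adjusted p = 0.0175). CTSB, the cysteine protease cathepsin B, stood at 172 and 181 FPKM in shLOXL2 and at 134 and 137 FPKM in shControl (log2 change 0.38, limma adjusted p = 0.0231). CTSZ, a cysteine carboxypeptidase, stood at 131 and 135 FPKM in shLOXL2 and at 115 and 109 FPKM in shControl (log2 change 0.24, limma adjusted p = 0.0424). These rises were of 1.37-fold, 1.30-fold and 1.19-fold in mean FPKM, and the CTSZ call was lost without a filter on low values, without an intensity trend, with quantile normalization and with the rescaling named above. CTSS, cathepsin S, which trims the invariant chain in antigen-presenting cells, went the other way, at 20.9 and 19.96 FPKM in shLOXL2 and 28.7 and 27.8 FPKM in shControl (log2 change -0.45 ± 0.043, SE, limma adjusted p = 0.0198). CTSC, the dipeptidyl peptidase that activates serine proteases of granules, was also lower in both shLOXL2 libraries, at 160 and 177 FPKM against 208 and 214 FPKM in shControl, and missed the threshold (log2 change -0.33, limma adjusted p = 0.0531). It did pass, as a fall, in 6 of the 15 alternative ways of processing described below.

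The 8 other proteases did not pass, with log2 changes from -0.19 to 0.23. CTSL, cathepsin L, a broad endopeptidase of about the level of LAMP1, stood at 71.7 and 76.4 FPKM in shLOXL2 and 71.7 and 72.8 FPKM in shControl, and its interval of -0.099 to 0.17 excludes a change of the size of CTSB. CTSH, an aminopeptidase, had 31.8 and 35.3 FPKM in shLOXL2 and 28.7 and 28.2 FPKM in shControl (limma adjusted p = 0.0995). LGMN, legumain, which cuts after asparagine, had 64.5 and 69.7 FPKM in shLOXL2 and 61.6 and 60.1 FPKM in shControl (limma adjusted p = 0.166), and its pseudogene LGMNP1, listed at 9.40 to 9.94 FPKM, may share its reads. TPP1, CTSF, CTSK, CTSO and CTSV complete the group. The last 3 lay near or below 2 FPKM, so that their intervals were wide, from -0.76 to 0.37 for CTSV. CTSK, the collagen-cutting protease of osteoclasts, averaged 1.86 ± 0.396 FPKM in shLOXL2 and 1.79 ± 0.295 FPKM in shControl (SD, n = 2 each).

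**Figure D2:**
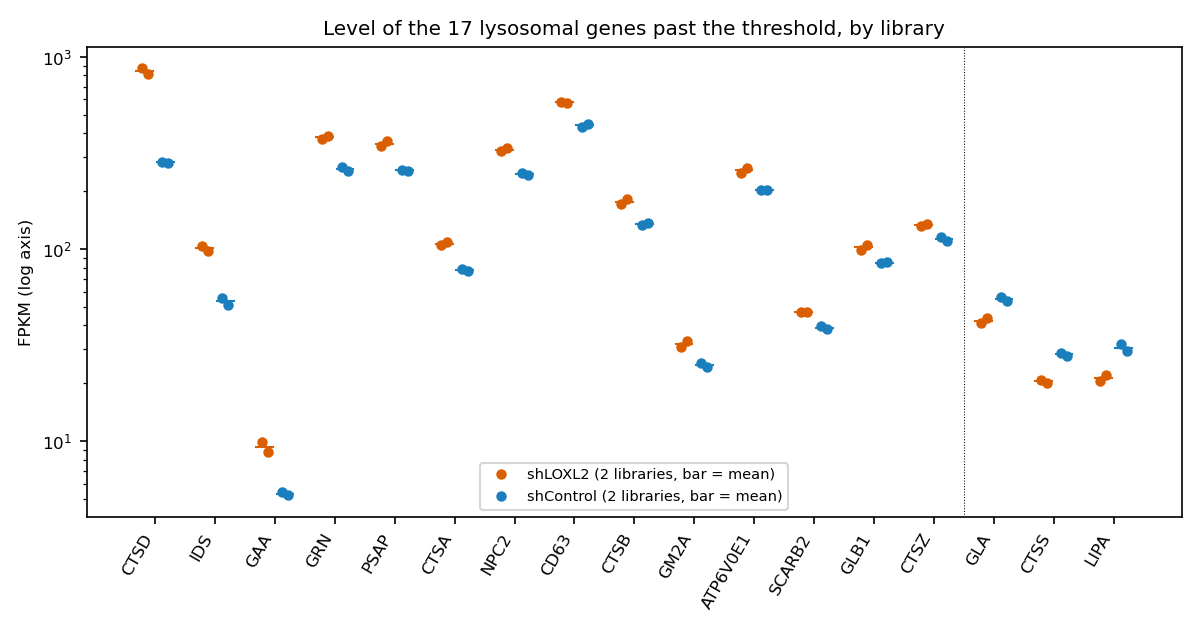
FPKM (log axis) of the 17 lysosomal genes past the threshold in each library, ordered by log2 change, with shLOXL2 left of shControl for each gene and a bar at the mean of 2 libraries. The 14 genes left of the dotted line were higher in both shLOXL2 libraries and the 3 on the right lower in both.

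Glycosidases remove sugars from glycoproteins, glycolipids and glycogen. Of the 9, with a median log2 change of 0.097, 2 rose and 1 fell, beside 8.35% and 8.54% of all genes tested. GAA, the acid alpha-glucosidase that breaks down glycogen, stood at 9.91 and 8.75 FPKM in shLOXL2 and at 5.41 and 5.20 FPKM in shControl, a 1.76-fold difference in mean FPKM. On the log2 scale GAA rose by 0.71 ± 0.079 (SE, 2 libraries per group, limma adjusted p = 0.0237), a call that was lost when genes of low level were kept (limma adjusted p = 0.0577). GLB1, the acid beta-galactosidase, had 99.03 and 105 FPKM in shLOXL2 and 84.4 and 85.3 FPKM in shControl (log2 change 0.26, limma adjusted p = 0.0416), a call lost without a filter and without an intensity trend. GLA, the alpha-galactosidase that clears globotriaosylceramide, fell to 41.3 and 43.4 FPKM in shLOXL2, against 55.9 and 53.6 FPKM in shControl (log2 change -0.36, limma adjusted p = 0.0287), a call lost without a filter (limma adjusted p = 0.0583). The 2 galactosidases thus differed in direction.

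Of the glycosidases that did not pass, MANBA, the beta-mannosidase, was at 3.89 and 4.68 FPKM in shLOXL2 and 2.91 and 2.71 FPKM in shControl, and had the largest positive log2 change of any member below the threshold, 0.47 ± 0.11 (SE, limma adjusted p = 0.0760). NEU1, the lysosomal neuraminidase that works in a complex with CTSA and GLB1, stood at 44.7 and 44.3 FPKM in shLOXL2 and 39.9 and 39.1 FPKM in shControl, groups that did not overlap, and narrowly missed the threshold (log2 change 0.17, limma adjusted p = 0.0531). HEXA, which removes terminal hexosamines from GM2 ganglioside, had 42.9 and 44.0 FPKM in shLOXL2 and 45.4 and 47.0 FPKM in shControl (limma adjusted p = 0.212). MAN2B1, NAGLU and GUSB had log2 changes of 0.080, 0.097 and -0.15. GUSB, the beta-glucuronidase, is uncertain since pseudogenes such as GUSBP1 and GUSBP4, listed at 1.54 to 4.06 FPKM, may share its reads.

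Among the other hydrolases and activators, with a median log2 change of 0.28, 4 of 11 rose and 1 fell, beside 8.35% and 8.54% of all genes tested. In all 11 the groups did not overlap, as in 64.6% of all genes tested and 72.0% of the protein-coding ones. IDS, the sulphatase that starts the breakdown of dermatan and heparan sulphate, stood at 104 and 97.4 FPKM in shLOXL2 and at 55.6 and 51.0 FPKM in shControl. This 1.89-fold difference was the largest after that of CTSD, with a log2 change of 0.91 ± 0.066 (SE, n = 2 per group, limma adjusted p = 0.0145). Its pseudogene IDSP1 is listed at 0 in all 4 libraries. GRN, which encodes progranulin, a precursor cut into granulins in the lysosome, had 375 and 386 FPKM in shLOXL2 and 268 and 255 FPKM in shControl (log2 change 0.54 ± 0.042, SE, limma adjusted p = 0.0154). PSAP, prosaposin, which yields the saposins and binds progranulin, had 342 and 365 FPKM in shLOXL2 and 259 and 254 FPKM in shControl (log2 change 0.46, limma adjusted p = 0.0205). GM2A, the activator that presents GM2 ganglioside to hexosaminidase, had 30.9 and 33.0 FPKM in shLOXL2 and 25.6 and 24.4 FPKM in shControl (log2 change 0.34, limma adjusted p = 0.0386), a call lost without a filter and without an intensity trend.

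LIPA, the acid lipase that frees cholesterol from its esters, fell to 20.6 and 22.1 FPKM in shLOXL2, against 31.8 and 29.3 FPKM in shControl (log2 change -0.50 ± 0.065, SE, limma adjusted p = 0.0293), the largest on this scale among the 3 members that fell, and a call lost without a filter on low values (limma adjusted p = 0.0638). Its annotated RefSeq span overlaps the interferon-induced genes IFIT2, IFIT3, IFIT1 and IFIT5. IFIT3 had 33.6 and 34.8 FPKM in shLOXL2 and 52.2 and 52.4 FPKM in shControl (log2 change -0.60, limma adjusted p = 0.0131). IFIT2 and IFIT1 fell too, with log2 changes of -0.48 and -0.38 (limma adjusted p = 0.0142 and 0.0335). IFIT5 did not pass, with a log2 change of 0.00010 (limma adjusted p = 0.999). No source used here says whether reads of LIPA and these genes were told apart by strand, and the part of these genes in the LIPA value was not tested. SMPD1, acid sphingomyelinase, missed the threshold at 25.3 and 26.8 FPKM in shLOXL2 and 20.7 and 21.8 FPKM in shControl (log2 change 0.28, limma adjusted p = 0.0514). ASAH1, acid ceramidase, which acts on the product of acid sphingomyelinase, stood at 39.3 and 41.6 FPKM in shLOXL2 and 44.9 and 44.9 FPKM in shControl (log2 change -0.15, limma adjusted p = 0.106). PPT1, SGSH, ARSA and ARSB had log2 changes of 0.15, 0.18, 0.31 and -0.031 and did not pass. PPT1 is uncertain, since it overlaps CAP1 in the annotation and may share its reads. CAP1 had 340 and 376 FPKM in shLOXL2 and 285 and 290 FPKM in shControl.

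Of the 11 membrane and sorting proteins, with a median log2 change of 0.073, 3 rose and 0 fell, beside 8.35% and 8.54% of all genes tested. NPC2, a soluble carrier that hands cholesterol to the membrane protein NPC1, had 324 and 334 FPKM in shLOXL2 and 248 and 242 FPKM in shControl (log2 change 0.42 ± 0.035, SE, limma adjusted p = 0.0170). NPC1 itself stood at 70.0 and 70.8 FPKM in shLOXL2 and 68.9 and 64.9 FPKM in shControl (log2 change 0.073, limma adjusted p = 0.325), and its log2 change was -0.013 with the rescaling. It overlaps RMC1 in the annotation and may share its reads. RMC1 had 26.7 and 25.2 FPKM in shLOXL2 and 27.9 and 30.4 FPKM in shControl. CD63, a tetraspanin of lysosomes and exosomes and the most abundant member in control cells, had 582 and 579 FPKM in shLOXL2 and 431 and 448 FPKM in shControl (log2 change 0.40, limma adjusted p = 0.0178). SCARB2, an abundant glycoprotein of the lysosomal membrane, had 47.1 and 46.7 FPKM in shLOXL2 and 39.6 and 38.2 FPKM in shControl (log2 change 0.26, limma adjusted p = 0.0303), a call lost without a filter, without an intensity trend and with the rescaling.

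The 2 main glycoproteins of the lysosomal membrane did not pass. LAMP1 stood at 79.7 and 76.3 FPKM in shLOXL2 and 69.6 and 71.6 FPKM in shControl (log2 change 0.14, limma adjusted p = 0.102). LAMP2 stood at 104 and 105 FPKM in shLOXL2 and 102 and 103 FPKM in shControl, with an interval of -0.058 to 0.11 on the log2 scale that was the narrowest of the 54. The sorting receptors differed in sign. IGF2R, the large mannose 6-phosphate receptor, had 43.0 and 38.9 FPKM in shLOXL2 and 31.9 and 33.3 FPKM in shControl (log2 change 0.32, limma adjusted p = 0.0597). M6PR, the small, cation-dependent one, had 125 and 134 FPKM in shLOXL2 and 140 and 142 FPKM in shControl (log2 change -0.12, limma adjusted p = 0.169), and SORT1, sortilin, had 24.8 and 23.6 FPKM in shLOXL2 and 27.4 and 26.6 FPKM in shControl (limma adjusted p = 0.105). The calcium channel gene MCOLN1 and the cystine exporter gene CTNS had log2 changes of -0.024 and 0.0053, with groups that overlapped. CTNS is uncertain, since it overlaps TAX1BP3 in the annotation and may share its reads. TAX1BP3 had 79.6 and 80.6 FPKM in shLOXL2 and 67.4 and 67.4 FPKM in shControl.

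Of the 6 V-ATPase genes 1 rose and 0 fell, beside 8.35% and 8.54% of all genes tested, and 1 call among 6 cannot be set apart from such a share. A positive log2 change was seen in 3 and a negative one in 3. ATP6V0E1, a small membrane subunit, had 249 and 264 FPKM in shLOXL2 and 203 and 202 FPKM in shControl (log2 change 0.34 ± 0.042, SE, limma adjusted p = 0.0278), a call lost without a filter and without an intensity trend. It is uncertain, since its pseudogene ATP6V0E1P2, at 41.0 and 40.7 FPKM in shLOXL2 and 36.7 and 33.2 FPKM in shControl, may share its reads. Subunits of the soluble, ATP-splitting part stood on both sides of 0, with ATP6V1H at 0.21, ATP6V1A at 0.19 and ATP6V1B2 at -0.12 (limma adjusted p = 0.0568, 0.167 and 0.0939). ATP6V0D1, which joins the stalk to the membrane ring, had 69.4 and 71.0 FPKM in shLOXL2 and 71.0 and 70.3 FPKM in shControl, groups that overlapped. The accessory subunit gene ATP6AP1 was lower in both shLOXL2 libraries, at 33.6 and 34.0 FPKM against 38.5 and 37.7 FPKM in shControl (log2 change -0.17, limma adjusted p = 0.0569).

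None of the 3 TFEB family genes passed (limma), and 0 of them had an unadjusted p below 0.05. TFEB was low, at 2.34 and 1.47 FPKM in shLOXL2 and 2.92 and 2.72 FPKM in shControl, and although the groups did not overlap its log2 change of -0.41 ± 0.19 (SE, limma adjusted p = 0.230) had an interval of -0.97 to 0.15. TFE3, the most abundant of the family, had 18.7 and 19.1 FPKM in shLOXL2 and 20.2 and 18.3 FPKM in shControl (log2 change -0.025, limma adjusted p = 0.810). MITF had 14.1 and 15.3 FPKM in shLOXL2 and 16.5 and 15.2 FPKM in shControl (log2 change -0.098, limma adjusted p = 0.392). These factors are controlled mainly by phosphorylation and entry into the nucleus, which RNA levels do not measure.

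Summed over the 54 members, the level was 4982 and 5025 FPKM in the shLOXL2 libraries and 3823 and 3793 FPKM in the shControl libraries, a ratio of means of 1.31. CTSD accounted for 46.7% of the difference. It made up 17.5% and 16.1% of the members' sum in shLOXL2 and 7.43% and 7.41% in shControl. Without CTSD the ratio was 1.18, at 4111 and 4215 FPKM in shLOXL2 and 3539 and 3512 FPKM in shControl. The 13 other cathepsins and proteases together had a ratio of 1.07, the glycosidases 1.05, the other hydrolases and activators 1.34, the membrane and sorting proteins 1.202, the V-ATPase genes 1.14 and the TFEB family 0.937. Single abundant genes carry some of these sums. ATP6V0E1, uncertain as said above, made up 53.97 of the 59.1 FPKM by which the V-ATPase genes differed, and CD63 and NPC2 made up 141 and 83.8 of the 239 FPKM of the membrane and sorting proteins. FPKM sums over all genes also differed between the groups, as given above, and as a share of the sum without mitochondrial and small RNA genes the members took 0.575% and 0.557% in shLOXL2 and 0.461% and 0.453% in shControl.

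**Figure D3:**
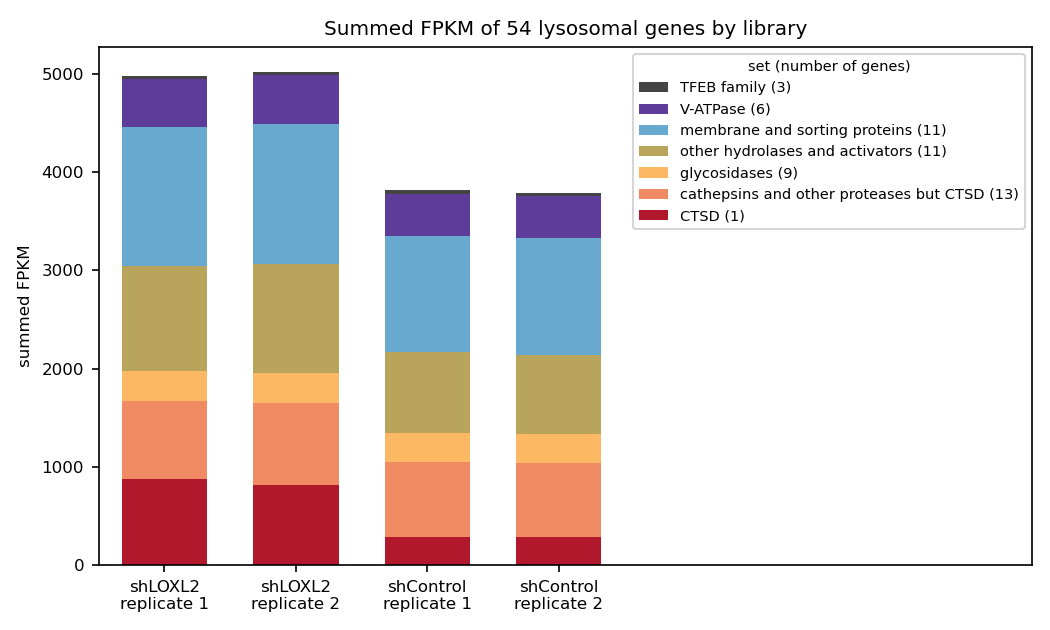
Summed FPKM of the 54 lysosomal genes in each library, split into CTSD and the subgroups, with the number of genes in each. The bars reach 4982 and 5025 FPKM in shLOXL2 and 3823 and 3793 FPKM in shControl, and the CTSD part is the one that differs most.

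E-boxes were looked for in the 37 members that have a RefSeq promoter window, and the remaining 17 members, among them CTSB, CTSS, PSAP and ATP6V0E1, were left out. CACGTG, which reads the same on both strands, was held by 10 of the 37 windows, or 27.0%, against 10.3% of the 9817 windows of tested genes and 7.43% of all 27305 windows. The longer TCACGTGA was held by 6, or 16.2%, against 2.06% of windows of tested genes, and its extension by a further base at each end, as in GAA, by 3, or 8.11%, against 0.805%. Each longer motif contains the shorter ones. Of the 10 members with CACGTG, CTSD, GAA, CTSA and CD63 rose and 0 fell, and the 6 others, IGF2R, NEU1, LAMP1, ATP6V0D1, MCOLN1 and CTSF, did not pass. Of the 27 members without it 7 rose, IDS and GRN among them, and 2 fell. These counts stand beside 8.35% of all genes tested that rose and 8.54% that fell. The median log2 change was 0.24 with the motif and 0.034 without it, over members chosen for being lysosomal, and the range was wide in both sets, from -0.16 to 1.57 and from -0.50 to 0.91. For the longer TCACGTGA, 2 of 6 members with it and 9 of 31 without it rose, CTSD among those without. LAMP1, with 6 in the window printed above, had a log2 change of 0.14 and IDS, with 0, had 0.91. A match is a string of letters in a window of 300 bases, not a measured binding site.

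**Figure D4:**
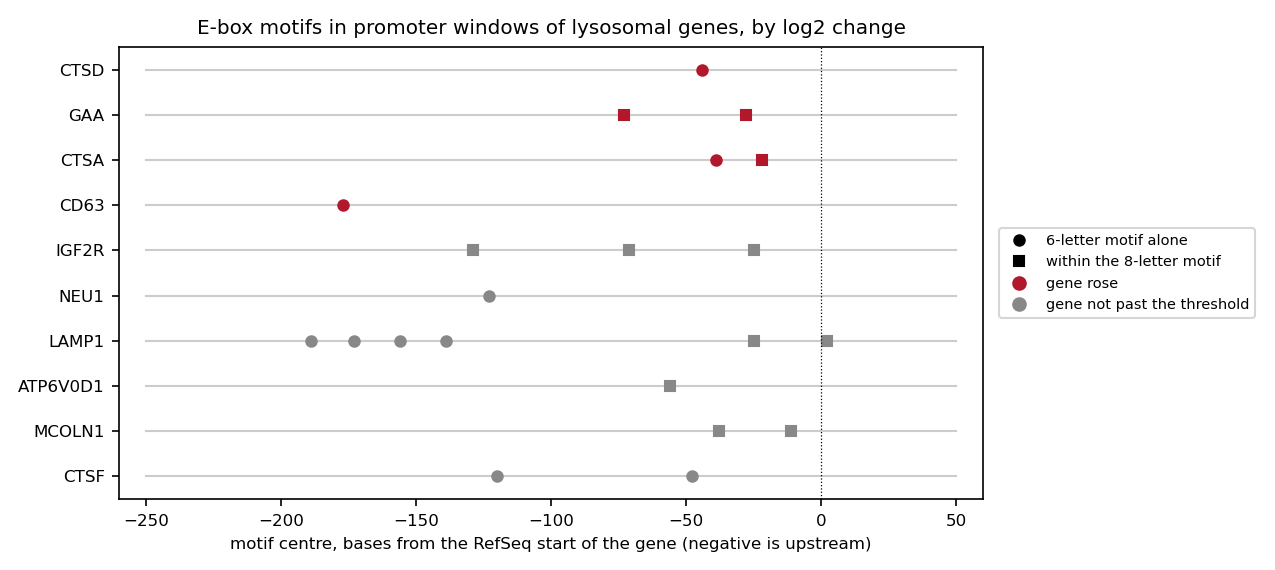
Position of each CACGTG (centre, in bases from the RefSeq start of the gene) in the promoter windows of the 10 members that hold it, ordered by log2 change. Squares lie within TCACGTGA, and red marks the 4 genes that rose. LAMP1 has 6 motifs and is not among these.

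The genes next to CTSD were low or listed at 0 in these cells, and were below the filter of the fit. IFITM10, the nearest gene on one side, was at 1.26 and 1.005 FPKM in shLOXL2 and 0.750 and 0.568 FPKM in shControl, groups that did not overlap. On the other side SYT8 and TNNI2 were below 0.1 FPKM in every library. The lncRNA PRADX, which overlaps the annotated span of CTSD, had 5.19 and 3.93 FPKM in shLOXL2 and 1.77 and 1.67 FPKM in shControl (log2 change 1.02, limma adjusted p = 0.0339). It is uncertain, since reads of CTSD may be counted for it.

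Further genes of the lysosome were taken from lists drawn up by function, with earlier results of these data known. Their counts stand beside 8.35% of all genes tested that rose and 8.54% that fell. Of 27 further hydrolases tested, 3 rose and 0 fell (11.1% and 0%), with a median log2 change of 0.15. Among those that rose was SUMF1, which activates sulphatases, at 11.4 and 13.4 FPKM in shLOXL2 and 7.94 and 7.58 FPKM in shControl (log2 change 0.61, limma adjusted p = 0.0388). Of 16 further V-ATPase genes 1 rose, ATP6V1G1, and 1 fell, ATP6V0A2, with a median of -0.00020. Of 27 further membrane proteins 1 rose and 4 fell. The one that rose was SLC17A5, the sialic acid exporter, at 31.9 and 33.0 FPKM in shLOXL2 and 20.6 and 19.2 FPKM in shControl (log2 change 0.68, limma adjusted p = 0.0150), and among those that fell LAPTM4A had the smallest p, at 59.3 and 60.8 FPKM in shLOXL2 and 83.7 and 81.5 FPKM in shControl (log2 change -0.45, limma adjusted p = 0.0154). Of 20 genes of sorting and delivery 4 rose and 1 fell, with VPS41, a subunit of the HOPS tethering complex, at 47.0 and 45.1 FPKM in shLOXL2 and 31.7 and 31.0 FPKM in shControl (log2 change 0.54, limma adjusted p = 0.0146), and GGA2, an adaptor for mannose 6-phosphate receptors, at 36.1 and 34.5 FPKM in shLOXL2 and 42.0 and 41.5 FPKM in shControl (log2 change -0.24, limma adjusted p = 0.0424). The alternatives described below also changed the share of all genes called. Without a filter on low values 601 of 36224 genes rose. With protein-coding genes alone 2135 of 11213 rose (19.0%), and that fit gave the highest count of each of these 4 lists. Over the alternatives that kept all libraries and no block, the number that rose ran from 1 to 10 for the hydrolases. It ran from 0 to 4 for the V-ATPase genes, 1 to 6 for the membrane proteins and 2 to 8 for sorting and delivery. Each was as low as 0 over all alternatives.

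Most of the tested genes listed as inhibitors of cathepsins were higher in shLOXL2 cells. This list too was drawn up with earlier results of these data known, so its count is a description. Of 8, 6 rose and 0 fell, with a median log2 change of 0.69, beside 8.35% of all genes that rose. CST1, cystatin SN, an extracellular inhibitor of cysteine proteases, stood at 949 and 1025 FPKM in shLOXL2 and at 366 and 353 FPKM in shControl (log2 change 1.45, limma adjusted p = 0.0115). CST3, cystatin C, the general secreted inhibitor, stood at 603 and 664 FPKM in shLOXL2 and at 375 and 370 FPKM in shControl (log2 change 0.76, limma adjusted p = 0.0157). CSTB, the cytosolic cystatin B, stood at 94.3 and 95.7 FPKM in shLOXL2 and at 58.2 and 62.8 FPKM in shControl (log2 change 0.64, limma adjusted p = 0.0157). CST4, SERPINB1 and CD74 rose as well, by 0.80, 0.30 and 0.24 on the log2 scale. CST1, CST2 and CST4 are near copies of each other and their values are uncertain, since reads could have been split between them. CST1 and CST4 are both in the count of 6. CSTA was listed at 0 in every library. The genes named here beyond CST1 were chosen after their values were seen, the count of 6 ran from 4 to 7 over the alternatives that kept all libraries and no block, and was 0 with the block and 0 or 1 with a library left out. Of all genes, 601 of 36224 rose without a filter on low values and 2135 of 11213 (19.0%) with protein-coding genes alone. Whether inhibitors differ from cathepsins was not tested. Which members each inhibitor acts on was not measured, and CTSD is an aspartic protease, not a cysteine protease.

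**Figure D5:**
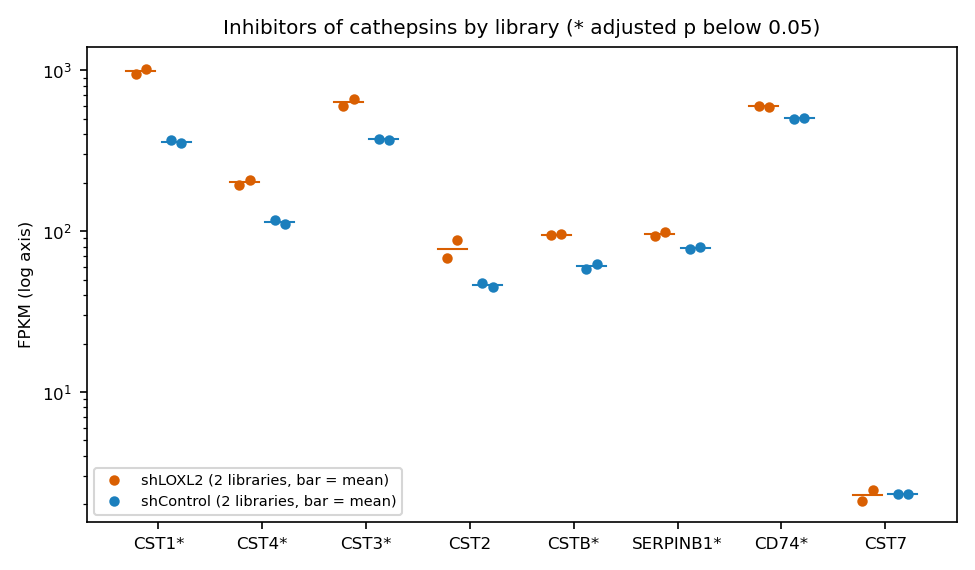
FPKM (log axis) of the 8 tested inhibitors of cathepsins in each library, ordered by log2 change, with shLOXL2 left of shControl and a bar at the mean of 2 libraries. Both shLOXL2 libraries lie above both shControl libraries for 7 of the 8, and CST7 overlaps.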

How the data were processed

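The authors deposited 1 gene table in FPKM, with a column for each of the 4 RNA libraries. Columns were matched to samples by name, CT with number to shControl and LOX with number to shLOXL2, since the labels do not spell out the column names. The submitters' processing notes name Bowtie, Cufflinks and the GRCh37 build, with no version. The annotation and strand handling behind the FPKM values are not given in the sources used here. Peak lists were not used, since no GRCh37 annotation was at hand to place peaks at genes. Symbols matched 39694 of 63657 identifiers. Among the small RNA genes compared, the commonest ratio of replicate 1 to replicate 2 was 1.05 in shLOXL2 and 0.990 in shControl. The bins at these ratios held 39 of 262 genes in shLOXL2 and 26 of 257 genes in shControl. Whether these ratios reflect relative depth was not tested, and whole reads were not recovered.

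Genes that averaged 1 FPKM or more were kept, and their log2(FPKM + 1) values were fitted with limma 3.58.1 in R 4.3.3, with an intensity trend, two-sided, Benjamini-Hochberg adjustment over all genes tested and a threshold of 0.05. Replicate number was not used, since nothing says that it pairs libraries. An exact permutation test of 2 against 2 libraries cannot go below 0.333. The code was tested on simulated data. Members and lists were chosen with earlier results of these data known. Values per library are given for members past the threshold with a log2 change of at least 0.5, the smallest p of each subgroup and the TFEB family, and for further members chosen after their values were seen. In the functional lists the smallest p in each direction is named, except in the further hydrolases, where that gene is not reported here. The housekeeping gene EEF1A1 has 0 in each of the 4 libraries, so a 0 can be a failed estimate.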

Additional observations from a re-analysis of the deposited data

How the results depend on the processing

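All 17 lysosomal genes past the threshold kept their direction under the 15 alternatives and their calls varied. With a pseudocount of 0.1 or 5 FPKM, a robust prior, median centring, a filter of 5 FPKM or protein-coding genes alone, the same 17 remained past it. Without a filter on low values 8 members rose and 1 fell (601 and 542 of all genes), and without an intensity trend 9 rose and 3 fell (926 of all genes rose). At a filter of 5 FPKM 18 rose and 5 fell of 48 in the fit (1560 and 1524 of all 12023 genes). With protein-coding genes alone 21 rose and 5 fell, and 2135 and 2177 of these genes, so that 38.5% were called. With the rescaling 12 members rose and 8 fell (2259 of all genes fell), and CTSC, ASAH1, M6PR, ATP6V1B2 and ATP6AP1 were the falls gained. The members' median was then 0.055. It was 0.094 with a pseudocount of 5 FPKM and 0.081 without shLOXL2 replicate 1.

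With a block for replicate number, which leaves 1 residual degree of freedom, 0 members rose, 0 fell and 0 genes passed limma's threshold, with 27 members and 5519 genes at an unadjusted p below 0.05. CTSD then had a log2 change of 1.57 (limma adjusted p = 0.0713) and LOXL2 -2.56 (limma adjusted p = 0.0713). Same-numbered libraries deviated together at a correlation of -0.0013 over genes. This rests on 2 pairs where 3 are needed, so it cannot show whether libraries were paired.

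With each library left out, also 1 degree of freedom, members that rose numbered 0 to 1, members that fell 0 to 0, all genes that rose 18 to 220 and all genes that fell 70 to 217, in fits where the remaining single library is taken to vary as much as the other group. CTSD ran from 1.52 to 1.62 and was the member called without shLOXL2 replicate 1 (limma adjusted p = 0.0244) or 2 (0.0273), but not without shControl replicate 1 (0.119) or 2 (0.110). LOXL2 ran from -2.72 to -2.41. Members not past the threshold that changed sign were ATP6V0D1 (0.014 with median centring) and, with the rescaling, CTSK (-0.022), CTSL (-0.052), MAN2B1 (-0.0039), NPC1 (-0.013), LAMP2 (-0.061) and CTNS (-0.073). Their ranges with a library left out were -0.026 to 0.0071 for ATP6V0D1, -0.084 to 0.095 for CTNS, -0.11 to 0.17 for CTSK, -0.011 to 0.078 for CTSL, -0.041 to 0.20 for MAN2B1, -0.088 to 0.040 for MCOLN1, -0.015 to 0.21 for NAGLU, -0.095 to 0.044 for TFE3 and -0.040 to 0.40 for TPP1. The causes were not tested.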

Other observations

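Genes that act around the lysosome went both ways. Over all genes tested 8.35% rose and 8.54% fell. Of 19 genes of nutrient sensing at its surface 4 rose and 2 fell, with FLCN, the folliculin gene that acts on the Rag GTPases, at 36.6 and 35.7 FPKM in shLOXL2 and 26.2 and 26.9 FPKM in shControl (log2 change 0.43, limma adjusted p = 0.0173). LAMTOR3, which encodes a part of the Ragulator scaffold, fell to 11.4 and 12.0 FPKM in shLOXL2, against 26.5 and 27.5 FPKM in shControl (log2 change -1.14, limma adjusted p = 0.0124), while LAMTOR1 of the same scaffold rose by 0.29 on the log2 scale. Of 25 autophagy genes 4 rose and 3 fell, with the receptor gene OPTN at 113 and 114 FPKM in shLOXL2 and 86.7 and 82.8 FPKM in shControl (log2 change 0.42, limma adjusted p = 0.0186) and GABARAPL1 at 23.2 and 22.0 FPKM in shLOXL2 and 29.8 and 28.5 FPKM in shControl (log2 change -0.35, limma adjusted p = 0.0314). Of 13 genes of endosomes, listed for comparison and not all of the early endosome, 1 rose, RAB11A, and 1 fell, SNX2. Over the alternatives that kept all libraries and no block, the number that rose ran from 1 to 7 for nutrient sensing. It ran from 1 to 6 for autophagy and 1 to 4 for endosomes. Of all genes, 601 of 36224 rose without a filter on low values and 2135 of 11213 (19.0%) with protein-coding genes alone.

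A grouping by level was made after the values were seen, on the mean over all 4 libraries. All 6 members with a mean of at least 200 FPKM rose (CTSD, CD63, GRN, PSAP, NPC2 and ATP6V0E1). At that level 16.7% of the 777 genes tested rose and their median log2 change was 0.088. The shLOXL2 values thus helped to decide which members were counted. CTSC averaged 211 FPKM in shControl and 168 FPKM in shLOXL2, and so was left out of the top level. CTSD was known to have risen when chosen, and ATP6V0E1 is uncertain, as said above. Of the 16 members between 20 and 50 FPKM 2 rose and 3 fell, where 11.2% of 3393 genes rose and 11.6% fell. At 1 to 5, 5 to 20, 50 to 100 and 100 to 200 FPKM, 0 of 6, 1 of 11, 3 of 9 and 2 of 6 members rose. In these levels 0 members fell, and 2.74%, 7.33%, 13.8% and 18% of all genes rose.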
